A study of Mus musculus with 72 samples.

Results

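Mouse bone marrow-derived macrophages labelled Setd1bKO were given bacterial lipopolysaccharide (LPS) with or without the synthetic glucocorticoid dexamethasone (Dex). The comparison uses 6 of the 72 messenger RNA libraries of the series, grouped by genotype and treatment label: 3 labelled Setd1bKO DexLPS and 3 labelled Setd1bKO LPS. It was chosen with earlier results of these data known. The DexLPS cells had 1 uM Dex for 16 h and 100 ng/ml LPS for 6 h. The LPS cells had 0.1% ethanol, the solvent of Dex, and the same LPS. A further 3 libraries labelled Setd1bKO had vehicle only (0.1% ethanol and 0.1% D-PBS) and give the level without LPS. Control cells, titled wt but with the genotype label Setd1bHet, had the same 3 treatments with 3 libraries each, so that 18 libraries hold the marrow cells. All are labelled C57BL/6J, were differentiated for 7 days in medium with L929 supernatant and were treated without serum. The labels do not say how the Setd1b allele was made, which sequence it lacks, or whether each replicate came from an animal of its own. The p-values below therefore measure only the spread between these libraries. The submitters present Setd1b as a protein that works with the glucocorticoid receptor in the nucleus, and the question here is what Dex does to LPS-treated cells that carry the Setd1bKO label. In the text, DexLPS and LPS libraries are those labelled Setd1bKO unless control is named.

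Glucocorticoids bind the receptor Nr3c1, which chaperones hold in the cytosol. The bound receptor enters the nucleus, raises genes such as Tsc22d3, Fkbp5 and Dusp1 through DNA elements of its own, and lowers many inflammatory genes that NF-kB and AP-1 drive. LPS is sensed by Tlr4, which turns on NF-kB and AP-1 targets such as cytokines and chemokines, and through IRF factors induces interferon beta (Ifnb1). Interferon beta then acts back on the cell through its receptor and JAK-STAT signalling and raises interferon-stimulated genes. Setd1b is a catalytic subunit of COMPASS, a complex family that methylates histone H3 on lysine 4, a mark of active promoters.

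Promoter sequences of 8 genes are shown because the results turn on 3 kinds of gene: glucocorticoid targets, NF-kB driven chemokines and interferon-stimulated genes. The sequences are from RefSeq on GRCm38.p6, end 1 base before the transcription start, and are printed 5′ to 3′ along the gene. Capitals mark the motif searched on both strands of windows from 250 bases before to 50 bases after each start. The glucocorticoid receptor half-site searched was AGAACA, and the full element was AGAACA, 3 bases of any kind and TGTTC. The NF-kB core was GGGANTTTC and the interferon core was GAAANNGAA, with N for any base. Sgk1 encodes a serine kinase and is a textbook glucocorticoid target that was not called here. It has 6 listed starts, and the window printed for 1 of them (chr10:21993640-21993889, plus strand) holds the full element.
Sgk1: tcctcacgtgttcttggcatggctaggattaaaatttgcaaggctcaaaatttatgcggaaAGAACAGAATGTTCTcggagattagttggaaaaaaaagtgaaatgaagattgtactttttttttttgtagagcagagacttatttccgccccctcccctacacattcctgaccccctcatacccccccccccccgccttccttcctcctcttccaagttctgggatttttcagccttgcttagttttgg
The neutrophil attractants Cxcl1 (chr5:90891095-90891244), Cxcl2 (chr5:90903749-90903898) and Cxcl3 (chr5:90785951-90786100) lie on the plus strand of chromosome 5 and share the NF-kB core, 71, 97 and 73 bases before the start.
Cxcl1: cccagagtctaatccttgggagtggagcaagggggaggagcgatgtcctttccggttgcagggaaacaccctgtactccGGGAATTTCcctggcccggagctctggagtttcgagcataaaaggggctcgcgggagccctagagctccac
Cxcl2: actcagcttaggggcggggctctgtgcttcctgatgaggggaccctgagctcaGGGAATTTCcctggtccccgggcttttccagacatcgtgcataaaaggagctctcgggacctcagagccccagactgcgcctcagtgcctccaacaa
Cxcl3: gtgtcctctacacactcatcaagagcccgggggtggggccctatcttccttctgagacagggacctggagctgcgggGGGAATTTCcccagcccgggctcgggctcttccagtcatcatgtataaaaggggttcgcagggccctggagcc
The interferon-stimulated genes Ifit1bl1 (chr19:34601969-34602118, minus strand), Rsad2 (chr12:26456453-26456602, minus strand), Ifit1 (chr19:34640739-34640888, plus strand) and Cxcl10 (chr5:92348890-92349139, minus strand) hold the interferon core. Capitals that begin with TTC and end with TTTC are the core on the opposite strand, and 2 of the 3 matches in Ifit1 overlap.
Ifit1bl1: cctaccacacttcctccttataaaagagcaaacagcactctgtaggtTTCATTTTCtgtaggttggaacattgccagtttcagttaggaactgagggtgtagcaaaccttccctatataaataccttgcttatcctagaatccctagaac
Rsad2: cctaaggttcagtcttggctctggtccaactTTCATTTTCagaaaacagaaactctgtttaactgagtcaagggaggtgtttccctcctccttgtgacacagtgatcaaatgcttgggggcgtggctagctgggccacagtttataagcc
Ifit1: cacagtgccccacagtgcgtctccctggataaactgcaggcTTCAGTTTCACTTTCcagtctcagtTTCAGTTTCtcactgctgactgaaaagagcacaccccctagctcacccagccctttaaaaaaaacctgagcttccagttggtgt
Cxcl10: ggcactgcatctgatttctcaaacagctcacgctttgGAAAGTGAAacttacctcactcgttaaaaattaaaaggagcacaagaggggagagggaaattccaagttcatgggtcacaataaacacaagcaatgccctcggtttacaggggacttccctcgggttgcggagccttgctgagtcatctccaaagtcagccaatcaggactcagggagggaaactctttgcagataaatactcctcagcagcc

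Of the tested genes, 7362 had a RefSeq promoter window. A gene with several starts was counted if the window of any of them held the motif. The interferon core was in 9.006% of them (663 genes) and in 29 of the 48 interferon-stimulated genes with a window (60.42%). The NF-kB core was in 84 genes (1.141%) and in 4 of 13 chemokines, namely Cxcl1, Cxcl2, Cxcl3 and Cxcl9. The half-site was in 14.51% (1068 genes), in 1 of the 12 genes that rose furthest (Tsc22d3) and in 1 of the 9 genes with a window among those that fell furthest (Ccl22). The full element was in 2 of the 7362 genes, Sgk1 and Pot1b. These shares were counted after the expression values had been seen, and a match describes the letters of a window and nothing more.

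The label was checked first on the targeted gene. Setd1b (ENSMUSG00000038384, chromosome 5, 123142193 to 123168629) had 4.47, 7.64 and 7.10 TPM in the DexLPS libraries, against 6.01, 6.89 and 9.64 TPM in the LPS libraries, and 10.3, 9.65 and 10.2 TPM in the vehicle libraries labelled Setd1bKO. Control cells had 4.49, 7.66 and 5.18 TPM in the control DexLPS libraries, against 5.46, 5.36 and 8.53 TPM in the control LPS libraries, and 3.80, 5.13 and 4.70 TPM in control vehicle. Setd1b was thus not lower in the libraries labelled Setd1bKO under any treatment, and gene-level TPM says nothing on an allele that still gives reads from the rest of the gene. Dex left it at a log2 change of -0.21 ± 0.21, which was not called, and the other COMPASS methyltransferase Setd1a was not called either (-0.13 ± 0.19). The sex label is female while the growth protocol speaks of male mice, and the Y-linked Ddx3y was at 15.8 to 34.7 TPM in all 18 libraries. Of macrophage identity genes, 24 of 27 were listed. The listed genes of a library summed to 905106 to 909974 TPM in the 6 libraries, and the reads behind a TPM value are unknown.

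Markers of other cell types were few. None of the fixed markers of T cells, NK cells, mast cells, dendritic cells, fibroblasts or erythroid cells was among the listed genes. Of 12 neutrophil markers, 3 were listed, and their summed level was 464 to 534 TPM in the DexLPS libraries, 177 to 201 TPM in the LPS libraries and at most 56.4 TPM in vehicle. Nearly all of that sum was S100a8, a calcium-binding protein that macrophages make too, with 521, 449 and 468 TPM in the DexLPS libraries, against 180.1, 163 and 155 TPM in the LPS libraries. The receptor of granulocyte colony-stimulating factor, Csf3r, moved the other way, with 3.98 ± 0.325 TPM with Dex and LPS and 10.8 ± 0.593 TPM with LPS (SD, n = 3 each), a log2 change of -1.25 ± 0.086. The collagenase Mmp8 had 10.3 ± 0.720 TPM with Dex and LPS and 11.1 ± 0.130 TPM with LPS and was not called, but was called lower after scaling (-0.28, adjusted p = 0.00326) and in the authors' deposited table (-0.30, adjusted p = 0.00229). Ighm, the 1 listed B cell marker, was at 0.0310 to 0.227 TPM with Dex and LPS and at 0.326 to 0.958 TPM with LPS, and Pf4, the 1 listed megakaryocyte marker, at 368 to 420 TPM with Dex and LPS and 385 to 431 TPM with LPS and was called lower only after scaling (-0.27), in the authors' deposited table (-0.27), and without DexLPS replicate 1 (-0.14) or LPS replicate 3 (-0.14). In bulk libraries such as these, fewer cells of a type and less RNA per cell cannot be told apart, and the part of other cells in the changes below was not tested.

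Dex moved many genes by small amounts and a smaller number by 2-fold or more. Values are TPM, and changes are differences of log2(TPM + 1) with their standard error (SE), tested with limma across 9159 genes. A gene is called, and is said to rise or fall, at a Benjamini-Hochberg adjusted p under 0.05. Of these genes 3591 rose (39.2%) and 1234 fell (13.5%) with Dex under LPS, 52.7% together. At 2-fold or more, 104 genes rose (1.14%) and 164 fell (1.79%). TPM values sum to a fixed total, and the median log2 change over all genes was 0.15. Median-of-ratios scaling, which sets the typical gene to no change, put that median at -0.01. It gave 1404 genes that rose (15.3%) and 2178 that fell (23.8%), or 73 and 246 at 2-fold or more. Counts in the gene lists below stand against these shares of all genes. The 1404 genes that rose after scaling had all risen as deposited, and the 1234 that fell as deposited all fell after scaling, while 5 genes rose as deposited and fell after scaling. The 3 DexLPS values lay apart from the 3 LPS values for 4947 genes (54%). In the authors' deposited table of the same comparison, 1229 genes were higher and 2135 lower at an adjusted p under 0.05.

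**Figure D1:**
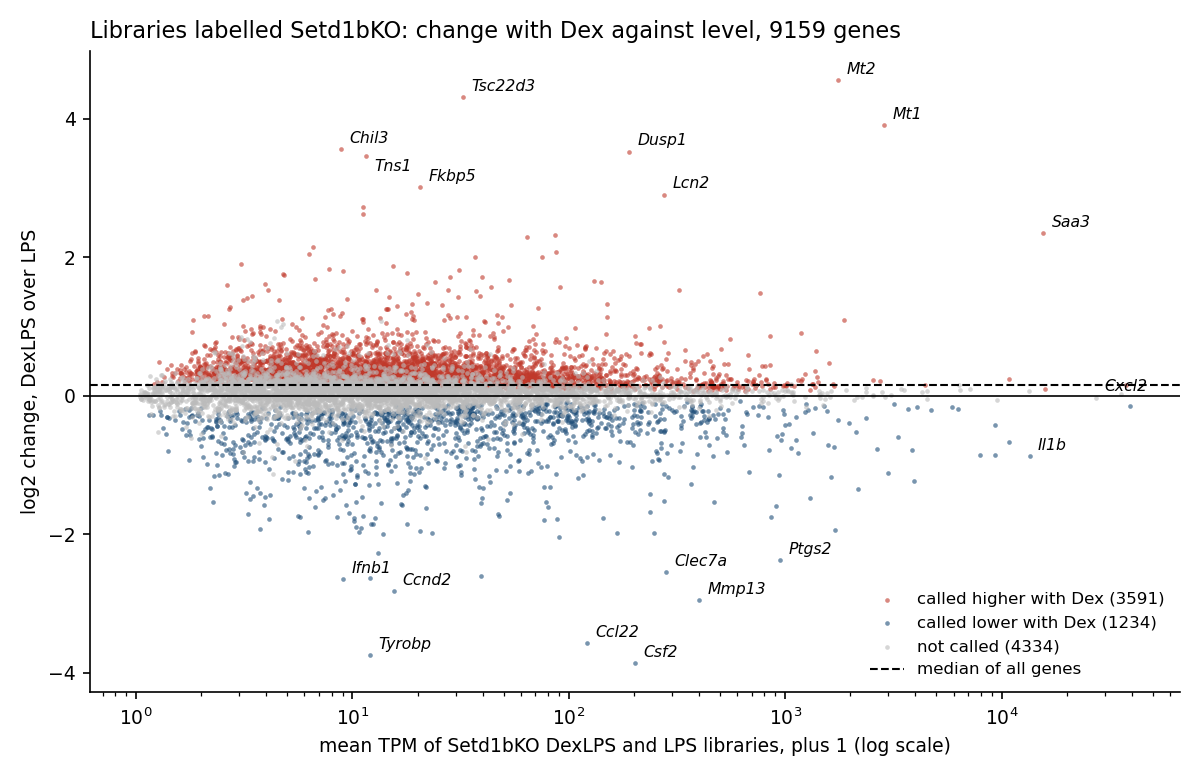
Each point is 1 of 9159 genes, with the mean TPM plus 1 of the 6 DexLPS and LPS libraries labelled Setd1bKO on a log axis and the log2 change, DexLPS over LPS, on the other. Red points rose (3591), blue points fell (1234), grey points were not called, and the dashed line is the median of all genes at 0.15. The metallothioneins Mt1 and Mt2 and the leucine zipper gene Tsc22d3 stand highest, while Csf2, Tyrobp and Ccl22 stand lowest.

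The 12 genes that rose furthest, among those with a group mean of 5 TPM or more and no shared range between DexLPS and LPS libraries, held glucocorticoid targets, metallothioneins and acute-phase genes. The metallothionein Mt2 (ENSMUSG00000031762, chromosome 8, 94172664 to 94173568), a small protein that binds zinc, had 3722, 3208 and 3173 TPM in the DexLPS libraries, against 139, 146 and 138 TPM in the LPS libraries. That is 23.8-fold by the ratio of means, a log2 change of 4.56 ± 0.11 (adjusted p = 5.01e-14). Its neighbour Mt1 had 5705, 5266 and 5179.5 TPM in the DexLPS libraries, against 339.7, 359 and 376 TPM in the LPS libraries, with a change of 3.91 ± 0.066. Both were apart in every library, which was a condition for the 12. Tsc22d3 (ENSMUSG00000031431, chromosome X, 140539528 to 140600659), the glucocorticoid-induced leucine zipper that binds NF-kB and AP-1, had 64.2, 61.8 and 55.2 TPM in the DexLPS libraries, against 1.81, 1.67 and 2.91 TPM in the LPS libraries. Its change was 4.31 ± 0.15 (adjusted p = 8.17e-12), and vehicle cells had 99.3 ± 1.83 TPM (SD, n = 3), so the DexLPS level lay between those of LPS and vehicle. The phosphatase Dusp1, which switches off MAP kinases, had 342, 351 and 352 TPM in the DexLPS libraries, against 29.9, 31.1 and 27.0 TPM in the LPS libraries, a change of 3.53 ± 0.055 and 11.9-fold by the ratio of means. Fkbp5, the co-chaperone that lowers the hormone binding of the receptor, had 36.8, 36.8 and 33.2 TPM in the DexLPS libraries, against 3.89, 3.62 and 3.10 TPM in the LPS libraries, a change of 3.01 ± 0.086.

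The others of the 12 spanned secreted defence proteins and transcription factors. Saa3, an acute-phase serum amyloid, was the most abundant, with 28158, 24294 and 25892 TPM in the DexLPS libraries, against 5214, 5159 and 4969.6 TPM in the LPS libraries and a change of 2.35 ± 0.082. The iron-scavenging lipocalin Lcn2 had 533, 487 and 435 TPM in the DexLPS libraries, against 68.3, 63.8 and 59.2 TPM in the LPS libraries (2.91 ± 0.10). Both had risen with LPS alone and rose further with Dex, as vehicle cells had 95.7 ± 5.67 TPM of Saa3 and 2.02 ± 0.226 TPM of Lcn2. Chil3, a chitinase-like secreted protein, was near the floor with LPS, with 16.1, 14.2 and 15.6 TPM in the DexLPS libraries, against 0.367, 0.376 and 0.405 TPM in the LPS libraries (3.56 ± 0.092). The focal adhesion gene Tns1 had 20.3 ± 2.38 TPM with Dex and LPS and 0.927 ± 0.171 TPM with LPS (3.46 ± 0.13). The clock gene Per1 had 15.5, 21.2 and 18.1 TPM in the DexLPS libraries, against 2.61, 1.27 and 2.63 TPM in the LPS libraries (2.63 ± 0.19). The AP-1 genes Jun (2.29 ± 0.068) and Jdp2 (2.32 ± 0.096), the second a repressor of AP-1, complete the 12, with Jun at 105 ± 1.57 TPM with Dex and LPS and 20.9 ± 2.03 TPM with LPS.

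Of 30 tested glucocorticoid-induced genes, 19 rose and 5 fell, with a median log2 change of 0.80 against 0.15 over all genes (18 and 7 after scaling). This list of known receptor targets was chosen with earlier results of these data known. Klf9, a repressor of the Kruppel-like family, rose (1.48 ± 0.13), with 28.6 ± 5.05 TPM with Dex and LPS and 9.60 ± 1.56 TPM with LPS. Klf4, a relative, rose as well (1.02 ± 0.093). Not every known target was called. Sgk1, with the full element in a promoter window, had 93.3, 112 and 119.7 TPM in the DexLPS libraries. It had 108, 100.0 and 107 TPM in the LPS libraries, so the groups overlapped (0.04 ± 0.093 (adjusted p = 0.744)). Nfkbia, the inhibitor of NF-kB, had 904 ± 23.9 TPM with Dex and LPS and 943 ± 12.5 TPM with LPS and was not called (-0.06 ± 0.052), though it was called lower after scaling (-0.25). The receptor Nr3c1 itself had 51.2, 98.8 and 81.0 TPM in the DexLPS libraries, against 55.5, 62.8 and 75.6 TPM in the LPS libraries and was not called (0.21 ± 0.24). Among the 13 tested genes of the receptor and its chaperones, 6 rose and 1 fell (3 and 3 after scaling), including the co-chaperone Fkbp4 (0.50 ± 0.058). Of 16 receptor coregulators, 4 rose and 2 fell (2 and 5 after scaling), with Tbl1xr1 (0.78 ± 0.12), a subunit of the NCoR corepressor, and the heterochromatin protein Cbx3 (0.75 ± 0.15) the furthest. Of 19 COMPASS subunits, 6 rose and 0 fell, but 1 rose after scaling, the shared subunit Dpy30 (0.58 ± 0.091). The median was 0.21 for the receptor and chaperones, 0.12 for coregulators and 0.12 for COMPASS subunits, against 0.15 over all genes. Over all genes 39.2% rose and 13.5% fell, or 15.3% and 23.8% after scaling.

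Cytokine messages were lower with Dex in most cases. Of 19 tested cytokines, 15 fell and 3 rose, with a median log2 change of -1.17 (15 and 2 after scaling). Csf2 (ENSMUSG00000018916, chromosome 11, 54247271 to 54249667), granulocyte-macrophage colony-stimulating factor, had 27.9, 27.0 and 20.9 TPM in the DexLPS libraries, against 386, 378 and 368 TPM in the LPS libraries. Its change was -3.86 ± 0.12 (adjusted p = 2.53e-12), which left 6.69% of the LPS level. Ifnb1 (ENSMUSG00000048806, chromosome 4, 88522025 to 88522774), interferon beta, had 1.93, 1.81 and 0.862 TPM in the DexLPS libraries, against 14.5, 15.8 and 13.5 TPM in the LPS libraries. It was listed at 0 in all 3 vehicle libraries, and its change with Dex was -2.65 ± 0.23 (adjusted p = 2.04e-07). No library of Csf2 or Ifnb1 overlapped with the other group, which was a condition for the 12 genes that fell furthest, to which both belong.

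The abundant cytokines of the LPS response fell by smaller amounts. Il1b, interleukin 1 beta, had 9754, 9289 and 9597 TPM in the DexLPS libraries, against 18027, 17633 and 16681 TPM in the LPS libraries (-0.87 ± 0.065), and 54.7% of its LPS level remained. Il6, which drives the acute phase, had 1003, 978 and 1022 TPM in the DexLPS libraries, against 2439, 2193 and 2117 TPM in the LPS libraries (-1.17 ± 0.079). Tnf, tumour necrosis factor, had 8488, 8590.3 and 7994 TPM in the DexLPS libraries, against 13347, 12787 and 13497 TPM in the LPS libraries (-0.66 ± 0.084). In these 3 genes the groups lay apart, as in 54% of all genes, and Tnf kept the largest share of its LPS level, 63.3%. The subunits of interleukin 12, Il12b (-1.60 ± 0.095) and Il12a (-1.80 ± 0.10), fell together, with Il12b at 451 ± 26.7 TPM with Dex and LPS and 1362 ± 17.0 TPM with LPS. Il1rn, the natural antagonist of the interleukin 1 receptor, fell as well, with 61.9, 68.8 and 63.1 TPM in the DexLPS libraries, against 215, 231 and 218 TPM in the LPS libraries (-1.76 ± 0.078). Oncostatin M, Osm, fell too (-1.84 ± 0.10). The 3 that rose, named after their values were seen, were granulocyte colony-stimulating factor, Csf3 (1.57 ± 0.077), the costimulatory ligand Tnfsf9 (0.76 ± 0.14) and the interleukin 27 subunit Ebi3 (0.14 ± 0.048), of which Ebi3 was not called after scaling (-0.05) or without DexLPS replicate 1 or 2 or LPS replicate 1 or 3 (0.10 to 0.14, adjusted p = 0.0515 to 0.101). Csf3 had 145, 129.7 and 129 TPM in the DexLPS libraries, against 45.5, 43.5 and 45.0 TPM in the LPS libraries. Its groups did not overlap, as in 54% of all genes. Edn1, endothelin 1, was the 1 member not called (0.10 ± 0.13).

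Most chemokines fell. Of 19 tested, 13 fell and 2 rose, with a median of -0.78 (15 and 0 after scaling). The 2 that rose as deposited, named after their values were seen, were the T cell attractants Cxcl9 (0.37 ± 0.15 (adjusted p = 0.0462)) and Ccl5 (0.24 ± 0.097 (adjusted p = 0.0483)), and neither was called after scaling (0.19 and 0.06), with a pseudocount of 0.1 (adjusted p = 0.535 and 0.0516) or without any 1 of the 6 DexLPS and LPS libraries (adjusted p = 0.0544 to 0.121 for Cxcl9 and 0.053 to 0.156 for Ccl5). Ccl22, which draws T cells through Ccr4, had 19.1, 17.5 and 16.3 TPM in the DexLPS libraries, against 198, 281 and 190.2 TPM in the LPS libraries and a change of -3.57 ± 0.20 (adjusted p = 1.26e-09). The monocyte attractants Ccl7 and Ccl2 fell by different amounts: Ccl7 had 139, 139 and 142 TPM in the DexLPS libraries, against 412, 429 and 376 TPM in the LPS libraries (-1.52 ± 0.13), and Ccl2 had 2765, 2778 and 3022 TPM in the DexLPS libraries, against 5027, 4678 and 4966 TPM in the LPS libraries (-0.78 ± 0.075). Of the 3 neutrophil attractants whose promoters share the NF-kB core, Cxcl3 fell and the others were not called. Cxcl3 had 2383, 2372 and 2264 TPM in the DexLPS libraries, against 5409.6, 5731 and 5385 TPM in the LPS libraries (-1.23 ± 0.084). Cxcl2 had 26803, 28182 and 26458 TPM in the DexLPS libraries, against 26944, 27529.8 and 28269.5 TPM in the LPS libraries (-0.02 ± 0.12 (adjusted p = 0.884)), and Cxcl1 had 7644, 7678 and 6923 TPM in the DexLPS libraries, against 6719.8, 6779 and 7154 TPM in the LPS libraries (0.11 ± 0.14 (adjusted p = 0.552)). The values of Cxcl1 and Cxcl2 overlapped between the groups, and neither gene was called after scaling, though Cxcl2 was called lower in the authors' deposited table (-0.21, adjusted p = 0.026). Cxcl5 (-1.09 ± 0.12), a further neutrophil attractant, and Cx3cl1 (-0.94 ± 0.13), a membrane-bound chemokine, fell.

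Interferon-stimulated genes fell nearly as a block. Of 60 tested, 56 fell and 0 rose, with a median log2 change of -0.55 (58 and 0 after scaling, median -0.73), and 14 fell 2-fold or more. All 60 had risen with LPS over vehicle in the same cells. Ifit1bl1, of the IFIT family that binds viral RNA, had 3.67, 3.65 and 3.22 TPM in the DexLPS libraries, against 14.6, 16.0 and 13.7 TPM in the LPS libraries, a change of -1.80 ± 0.088 (adjusted p = 2.63e-10). Rsad2, the antiviral enzyme viperin, had 353, 446 and 394 TPM in the DexLPS libraries, against 1277, 1354 and 1352 TPM in the LPS libraries (-1.74 ± 0.074). Ifit1 had 244, 252 and 238 TPM in the DexLPS libraries, against 506, 512 and 483 TPM in the LPS libraries (-1.03 ± 0.059). In none of these 3 genes did a DexLPS library reach an LPS library, and the groups also lay apart for 54% of all genes. Cxcl10, the interferon-induced T cell attractant, had 1279.6, 1225 and 1159.8 TPM in the DexLPS libraries, against 3135, 3357 and 2832 TPM in the LPS libraries (-1.34 ± 0.11).

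Oasl1, Mx1, Cmpk2 and Ifit2 were named because their changes were among the largest of the 60 genes, whose median was -0.55. The 2'-5' oligoadenylate synthetase-like Oasl1 (-1.73 ± 0.084), the dynamin-like GTPase Mx1 (-1.67 ± 0.24), the nucleotide kinase Cmpk2 (-1.53 ± 0.081) and Ifit2 (-1.48 ± 0.23) fell, with Mx1 at 113 ± 12.9 TPM with Dex and LPS and 359 ± 9.64 TPM with LPS. Ifitm3, a membrane protein that blocks virus entry, had 1430.3 ± 77.3 TPM with Dex and LPS and 1572 ± 101 TPM with LPS and was not called (-0.14 ± 0.057 (adjusted p = 0.0559)). It was called without DexLPS replicate 1 (-0.18, adjusted p = 0.0232) and without LPS replicate 3 (-0.19, adjusted p = 0.0133), after scaling (-0.32, adjusted p = 0.00267) and in the authors' deposited table (-0.32, adjusted p = 0.000248). Oas1a was not called (-0.04 ± 0.050), but was called lower after scaling (-0.22). Relatives within a family, such as the Ifit, Mx or Oas genes, can share reads that an estimate splits between them, so their single values may be less certain.

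**Figure D2:**
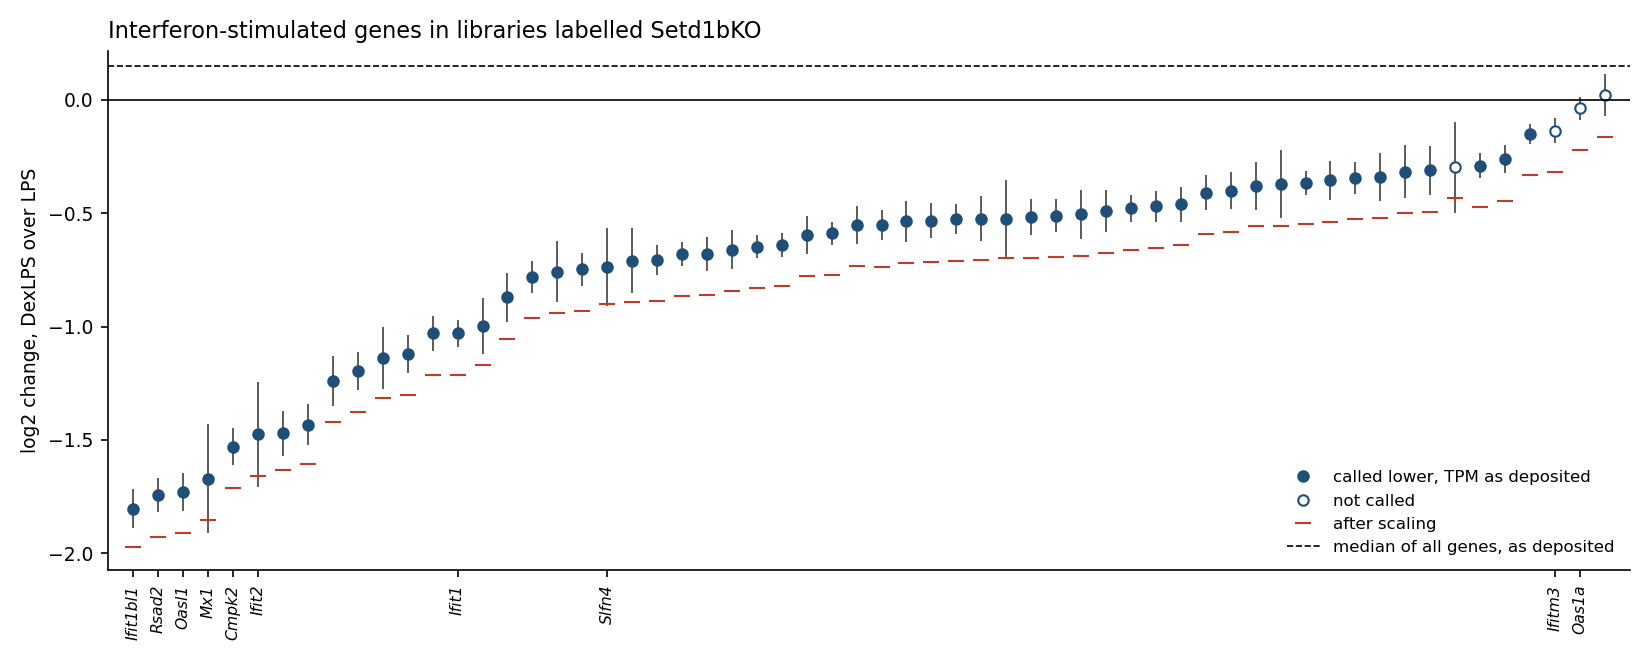
Log2 change with Dex (DexLPS over LPS, libraries labelled Setd1bKO) of the 60 tested interferon-stimulated genes, ordered by change, with bars of 1 SE. Genes named in the text are labelled, filled points fell, open points were not called, red dashes are the values after scaling, and the dashed line is the median of all genes at 0.15. All but a few genes lie below 0, and Ifit1bl1 has the lowest value.

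Inhibitors that act back on these pathways did not move in 1 direction. Of 23 feedback inhibitors, 5 rose and 7 fell, with a median of -0.01 (4 and 11 after scaling). Of all genes, 39.2% rose and 13.5% fell, or 15.3% and 23.8% after scaling. Dusp1 was the member that rose furthest. The signal suppressor Cish, induced by STAT5, had 32.3, 33.8 and 36.3 TPM in the DexLPS libraries, against 129, 157 and 143 TPM in the LPS libraries (-2.03 ± 0.19). Zfp36, which destabilises cytokine messages, had 128 ± 5.54 TPM with Dex and LPS and 343 ± 15.1 TPM with LPS (-1.41 ± 0.071), while its relative Zfp36l1 rose (0.85 ± 0.17). Socs3 (-0.80 ± 0.13), which dampens STAT3, and Tnip3 (-1.96 ± 0.27), a partner of the ubiquitin editor Tnfaip3, fell. Tnfaip3 itself had 335 ± 48.8 TPM with Dex and LPS and 316 ± 6.60 TPM with LPS and was not called (0.08 ± 0.14).

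Transcription factors of the inflammatory response split. The counts here stand against 39.2% of all genes that rose and 13.5% that fell, or 15.3% and 23.8% after scaling. Of 5 NF-kB subunits, 0 rose and 2 fell (0 and 3 after scaling), Nfkb1 (-0.41 ± 0.033) and Rel (-0.80 ± 0.15), while Rela (0.10 ± 0.046) was not called. Of 11 AP-1 and immediate early factors, 5 rose and 5 fell (4 and 6 after scaling). Fos (0.93 ± 0.11) and Ier2 (0.94 ± 0.12) rose with Jun, and Atf3 (-1.16 ± 0.046), Jund (-1.08 ± 0.061) and Egr2 (-0.85 ± 0.090) fell. Of 23 Toll-like receptor genes and adaptors, 7 rose and 6 fell (4 and 10 after scaling). The LPS receptor Tlr4 fell (-0.61 ± 0.11), with 5.10, 7.58 and 6.19 TPM in the DexLPS libraries, against 9.44, 10.0 and 10.5 TPM in the LPS libraries, while its co-receptor Cd14 rose (0.65 ± 0.054), with 1762, 1684 and 1621 TPM in the DexLPS libraries, against 1066, 1097 and 1060.2 TPM in the LPS libraries. Tlr13 (0.53 ± 0.058), a sensor of bacterial ribosomal RNA, rose, and the RNA sensor Tlr3 (-0.46 ± 0.088) fell. Clec7a, the receptor of fungal beta-glucan, had 78.1, 81.1 and 84.0 TPM in the DexLPS libraries, against 472, 486 and 473 TPM in the LPS libraries (-2.54 ± 0.043). The mycobacterial lipid receptor Clec4e was not called (0.09 ± 0.083).

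Enzymes that make inflammatory mediators fell in part. Ptgs2, the inducible prostaglandin synthase, had 251, 355 and 316 TPM in the DexLPS libraries, against 1477, 1555 and 1708 TPM in the LPS libraries (-2.37 ± 0.13 (adjusted p = 8.32e-10)). Further along that pathway the prostaglandin E synthases Ptges (0.59 ± 0.13) and Ptges2 (0.75 ± 0.077) rose, and so did Pla2g7 (0.53 ± 0.044), which degrades platelet-activating factor. Pla2g4a, the phospholipase that releases arachidonic acid, fell (-0.68 ± 0.077). Over 11 prostaglandin and leukotriene genes, 4 rose and 5 fell (3 and 7 after scaling). The shares of all genes were 39.2% and 13.5%, or 15.3% and 23.8% after scaling. Nos2, the inducible nitric oxide synthase, had 58.4, 68.2 and 75.2 TPM in the DexLPS libraries, against 267, 263 and 268 TPM in the LPS libraries (-1.98 ± 0.077), and the arginine transporter Slc7a2 (-0.95 ± 0.12), Arg2 (-0.60 ± 0.078) and Ass1 (-0.40 ± 0.056) of arginine metabolism fell with it. Of 10 inflammasome genes, 1 rose and 3 fell (1 and 6 after scaling): Casp1 (-0.33 ± 0.036) and Aim2 (-0.45 ± 0.13) fell besides Il1b, Nlrc4 rose (0.33 ± 0.075), and Nlrp3 was not called (-0.05 ± 0.060), though it was called lower after scaling (-0.24).

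Antigen presentation was lower on the class II side. Of 12 genes of MHC class II and costimulation, 10 fell and 2 rose under both scalings, with a median of -0.77. The invariant chain Cd74 had 38.8, 40.6 and 36.5 TPM in the DexLPS libraries, against 122, 127 and 108 TPM in the LPS libraries (-1.60 ± 0.089). The class II chains H2-Aa (-1.58 ± 0.090) and H2-Eb1 (-1.02 ± 0.13) fell with it. The costimulatory ligand Cd86 had 8.64, 7.43 and 7.18 TPM in the DexLPS libraries, against 14.6, 17.8 and 15.04 TPM in the LPS libraries (-0.94 ± 0.11), whereas Cd80 (0.89 ± 0.11) and the ICOS ligand Icosl (1.33 ± 0.094) rose, Icosl to 25.9 ± 2.20 TPM with Dex and LPS and 9.73 ± 1.41 TPM with LPS. Of 16 class I genes, 8 fell and 4 rose (11 and 1 after scaling), where 13.5% of all genes fell and 39.2% rose (23.8% and 15.3% after scaling). The peptide transporter Tap1 (-0.45 ± 0.060), its partner Tapbp (-0.34 ± 0.043) and the class I activator Nlrc5 (-0.63 ± 0.14) fell, H2-Q6 rose (0.51 ± 0.12), and B2m was not called (-0.05 ± 0.030) but was lower after scaling (-0.24). H2-Q6 has near-identical neighbours, so its value is uncertain.

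Macrophage identity genes went both ways. Of 24 tested, 9 rose and 12 fell (5 and 13 after scaling), where 39.2% of all genes rose and 13.5% fell (15.3% and 23.8% after scaling). The complement gene C1qa (0.82 ± 0.094) and the myeloid factor Cebpa (1.30 ± 0.11) rose, with Cebpa at 21.7 ± 2.79 TPM with Dex and LPS and 8.24 ± 1.21 TPM with LPS. The integrin Itgam (-1.01 ± 0.070), the factor Maf (-0.76 ± 0.12) and the scavenger protein Cd5l (-0.84 ± 0.075) fell. Mpeg1, a pore-forming protein, was not called (-0.09 ± 0.052 (adjusted p = 0.143)) and was called without DexLPS replicate 2 (-0.14, adjusted p = 0.0416), after scaling (-0.28, adjusted p = 4.34e-05) and in the authors' deposited table (-0.28, adjusted p = 3.16e-11). Tyrobp, the signalling adaptor of many myeloid receptors, was among the 12 that fell furthest, with 0.000816, 0.00554 and 0.162 TPM in the DexLPS libraries, against 24.4, 1.74 and 39.7 TPM in the LPS libraries. Its values differed within each group by more than 10-fold, its change was -3.75 ± 1.13 (adjusted p = 0.0118), and without LPS replicate 3 it was -2.99 and not called (adjusted p = 0.0564). Scimp, another signalling adaptor, had 2.41 ± 0.602 TPM with Dex and LPS and 19.8 ± 0.606 TPM with LPS (-2.62 ± 0.12).

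Scavenger receptors were lower except for a few. Of 17 tested, 9 fell and 4 rose, with a median of -0.50 (12 and 3 after scaling). Counts in this paragraph stand against 13.5% of all genes that fell and 39.2% that rose, or 23.8% and 15.3% after scaling. Olr1, the receptor of oxidised lipoprotein, had 10.0, 11.7 and 8.72 TPM in the DexLPS libraries, against 61.6, 68.2 and 69.8 TPM in the LPS libraries (-2.61 ± 0.13). Cd36 (-1.19 ± 0.058), Axl (-1.01 ± 0.080) and Msr1 (-0.88 ± 0.055) fell. Marco, a receptor of bacterial surfaces, rose, with 224, 209.9 and 202 TPM in the DexLPS libraries, against 69.8, 69.7 and 61.5 TPM in the LPS libraries (1.65 ± 0.071), as did Stab1 (0.96 ± 0.19). The mannose receptor Mrc1 was not called (-0.07 ± 0.068), but was called lower after scaling (-0.24). Among 21 genes of lipid handling, 7 rose and 9 fell (4 and 11 after scaling): the lipid chaperone Fabp4 (1.26 ± 0.052) and the apolipoprotein Apoc2 (0.90 ± 0.12) rose, and the lipase Lpl (-1.10 ± 0.066) and the cholesterol exporter Abcg1 (-0.98 ± 0.075) fell. Ch25h, which makes the antiviral oxysterol, had 1.13, 1.68 and 2.03 TPM in the DexLPS libraries, against 7.88, 8.11 and 6.76 TPM in the LPS libraries (-1.73 ± 0.12). Of 18 genes of sterol and fatty acid synthesis, 2 rose and 4 fell (1 and 9 after scaling), with Cyp51 (-0.70 ± 0.13) the furthest.

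Secreted proteases mostly fell, and several acute-phase genes rose. Of 21 proteases and inhibitors, 13 fell and 3 rose, with a median of -0.63 (16 and 3 after scaling). The collagenase Mmp13 had 85.4, 94.6 and 92.6 TPM in the DexLPS libraries, against 709, 754 and 656 TPM in the LPS libraries (-2.94 ± 0.066 (adjusted p = 3.76e-14)). The macrophage elastase Mmp12 had 654, 704 and 749 TPM in the DexLPS libraries, against 2783, 2485 and 2775 TPM in the LPS libraries (-1.93 ± 0.057). In both genes the groups did not overlap, as in 54% of all genes, and for Mmp13 this was a condition of its choice. Mmp9 (-1.74 ± 0.29), the plasminogen activator Plau (-1.58 ± 0.090), its inhibitor Serpinb2 (-1.98 ± 0.080) and the metalloprotease inhibitor Timp1 (-2.26 ± 0.16) fell with them. Cystatin C, Cst3, was not called (-0.02 ± 0.031) but was lower after scaling (-0.20). Of 13 acute-phase and antimicrobial genes, 6 rose and 2 fell, with a median of 0.35 (5 and 2 after scaling), where 39.2% of all genes rose and 13.5% fell. Haptoglobin, Hp (2.15 ± 0.15), and orosomucoid, Orm1 (1.88 ± 0.14), rose with Saa3, Lcn2 and S100a8, and complement C3 was not called (0.04 ± 0.064). Of 11 osteoclast markers, 9 fell and 0 rose, with a median of -0.64 (10 and 0 after scaling), among them Car2 (-1.96 ± 0.19), Acp5 (-0.94 ± 0.076), Ctsk (-0.75 ± 0.059) and Itgb3 (-0.64 ± 0.12), while the regulator Nfatc1 was not called (0.09 ± 0.082).

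**Figure D3:**
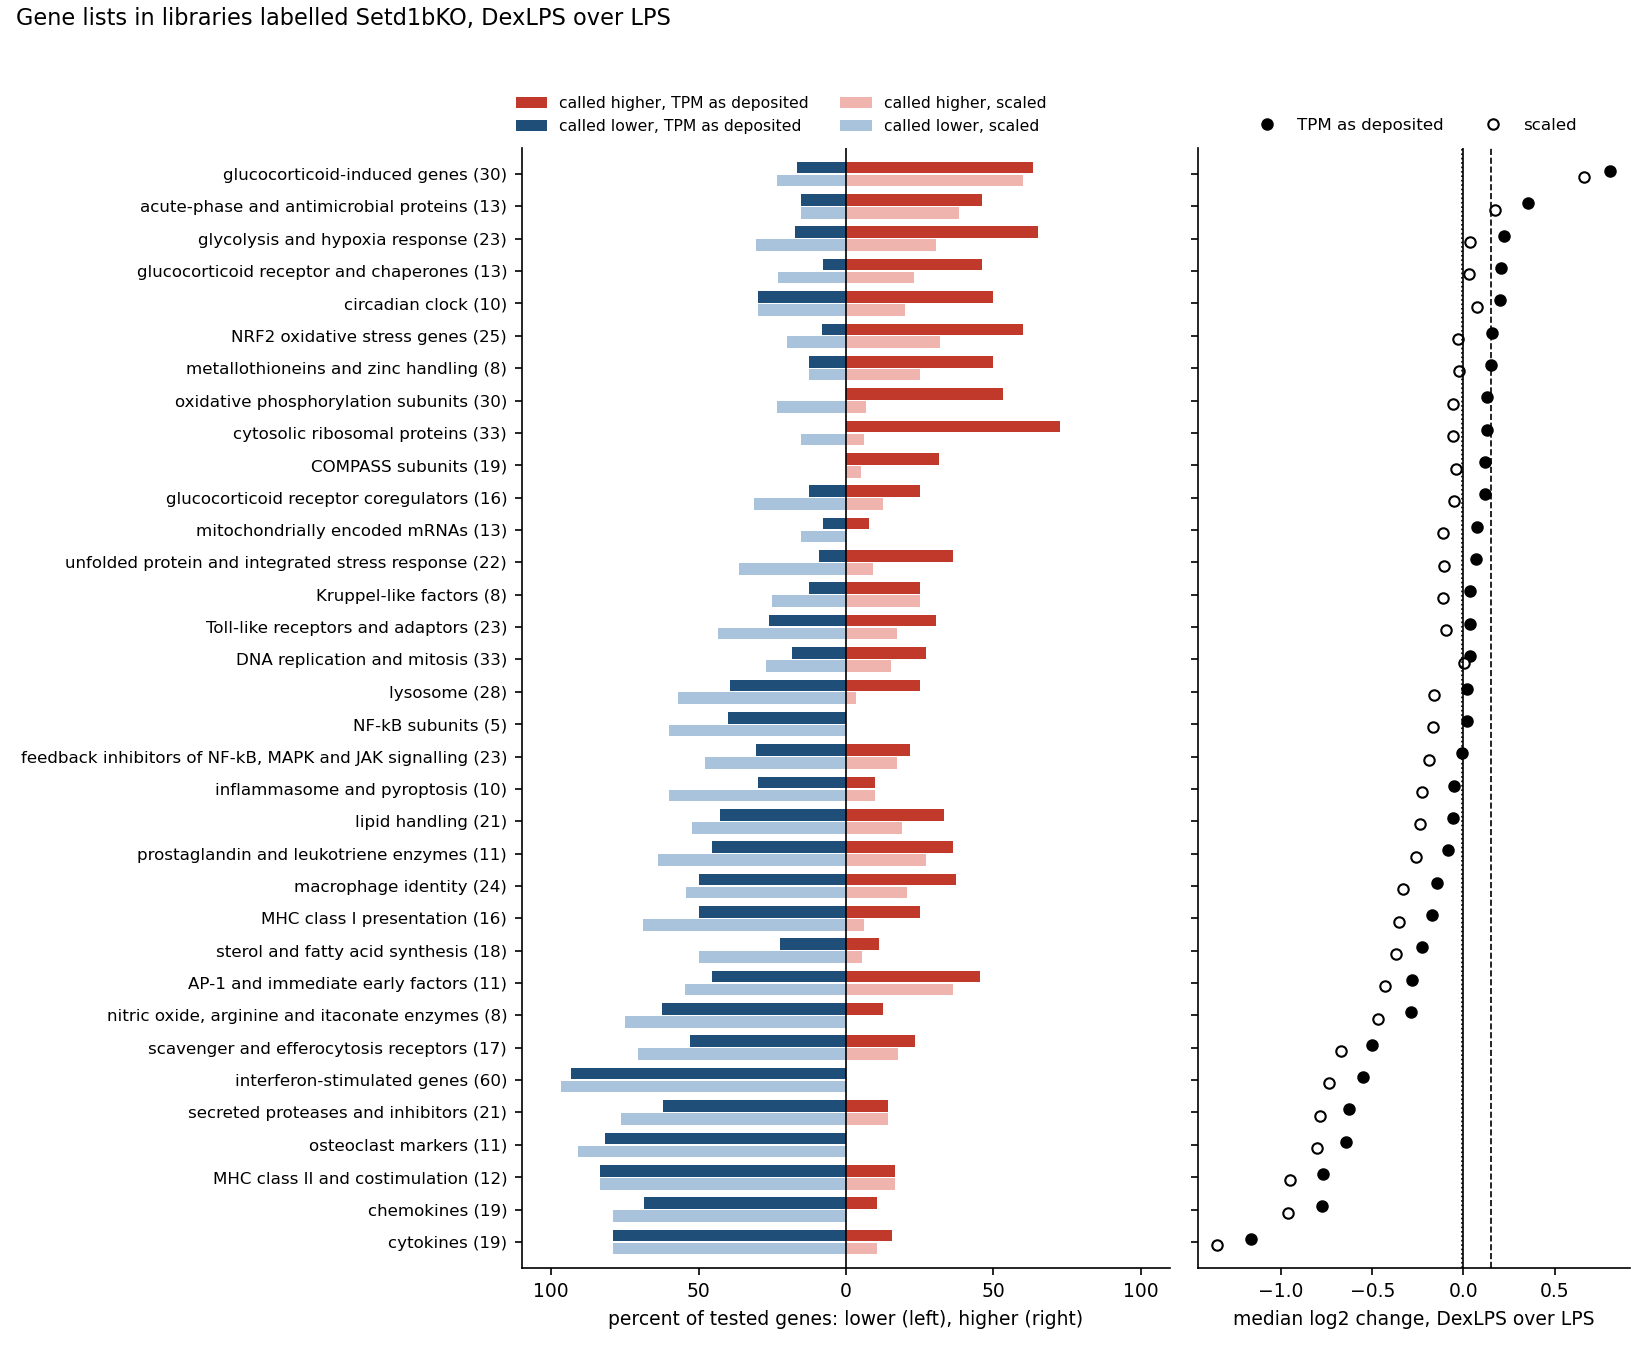
Left, the percent of tested genes in each of 34 lists that rose (to the right) or fell (to the left) with Dex in the libraries labelled Setd1bKO, dark bars for TPM as deposited and light bars after median-of-ratios scaling, with the number tested in brackets. Right, the median log2 change of each list under both scalings, with the medians of all genes as a dashed line (0.15, as deposited) and a dotted line (-0.01, scaled). Cytokines, chemokines and class II genes lie at the low end, and glucocorticoid-induced genes at the high end.

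The medians of the stress and metabolic lists lay near that of all genes, and many of their calls depend on the scaling. The median log2 change was 0.15 for NRF2 genes and 0.22 for glycolysis and hypoxia genes, against 0.15 over all genes. After scaling it was -0.03 and 0.04, against -0.01. Over all genes 39.2% rose and 13.5% fell, or 15.3% and 23.8% after scaling. Of 25 NRF2 oxidative stress genes, 15 rose and 2 fell, but 8 rose and 5 fell after scaling. Hmox1, heme oxygenase, had 1522, 1439 and 1648 TPM in the DexLPS libraries, against 829, 812 and 817 TPM in the LPS libraries (0.90 ± 0.064). Osgin1 (1.25 ± 0.11), Gsta3 (0.92 ± 0.078), the glutathione enzymes Gclc (0.72 ± 0.067) and Gsr (0.60 ± 0.045) and catalase, Cat (0.58 ± 0.046), rose, and these 6 are higher under both scalings. Of 23 genes of glycolysis and the hypoxia response, 15 rose and 4 fell (7 and 7 after scaling). Pfkfb3, which makes the activator of phosphofructokinase, had 51.1, 61.0 and 61.2 TPM in the DexLPS libraries, against 12.4, 14.5 and 14.0 TPM in the LPS libraries (2.00 ± 0.090). Bnip3 (1.17 ± 0.074), Pfkl (1.08 ± 0.066), the lactate exporter Slc16a3 (0.91 ± 0.071) and Pgk1 (0.68 ± 0.032) rose, and the hexokinase Hk3 fell (-0.71 ± 0.051). Hif1a was not called (-0.05 ± 0.080), but was called lower after scaling (-0.23).

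Of 22 genes of the unfolded protein and integrated stress response, 8 rose and 2 fell, but 2 rose and 8 fell after scaling. Their median was 0.07, against 0.15 over all genes, of which 39.2% rose and 13.5% fell (15.3% and 23.8% after scaling). Herpud1 (0.69 ± 0.080) of endoplasmic reticulum degradation rose and the chaperone Calr fell (-0.53 ± 0.044), both under both scalings. Dnajb9 rose (0.32 ± 0.086 (adjusted p = 0.0055)) as deposited but was not called after scaling (0.15), and Hspa5 was not called (-0.16 ± 0.10) but was lower after scaling (-0.34). Of 10 clock genes, 5 rose and 3 fell (2 and 3 after scaling): Rora rose (0.66 ± 0.17) beside Per1, Bhlhe40 fell (-0.96 ± 0.12) and Cry1 was not called (0.11 ± 0.083). Of 8 Kruppel-like factors, 2 rose, Klf9 and Klf4, and 1 fell, Klf6 (-0.43 ± 0.079), or 2 and 2 after scaling. Of 33 genes of DNA replication and mitosis, 9 rose and 6 fell (5 and 9 after scaling). The cyclin Ccnd2 had 2.36, 3.56 and 2.66 TPM in the DexLPS libraries, against 24.5, 29.2 and 24.6 TPM in the LPS libraries (-2.82 ± 0.13), Ccne1 (-1.12 ± 0.12) and Tpx2 (-0.67 ± 0.086) fell, and E2f1 rose (0.47 ± 0.066). Pcna was not called (-0.01 ± 0.027), but was called lower after scaling (-0.20).

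Ribosomal and mitochondrial genes moved little. The median log2 change was 0.13 for the cytosolic ribosomal protein genes, 0.13 for the nuclear genes of oxidative phosphorylation and 0.07 for the mitochondrially encoded messages, against 0.15 over all genes. The counts below stand against 39.2% of all genes that rose and 13.5% that fell, or 15.3% and 23.8% after scaling. Of 33 cytosolic ribosomal protein genes, 24 rose and 0 fell, but 2 rose and 5 fell after scaling, with Rps24 (0.63 ± 0.15) and Rps9 (0.48 ± 0.042) the furthest. Of 30 nuclear genes of oxidative phosphorylation, 16 rose and 0 fell (2 and 7 after scaling), with Ndufb3 (0.40 ± 0.059) the furthest, which was not called in the authors' deposited table (0.22, adjusted p = 0.0583). Of 28 lysosome genes, 7 rose and 11 fell (1 and 16 after scaling), with Gusb (0.36 ± 0.039) and the proton pump subunit Atp6v0d2 (-0.51 ± 0.058) at the ends. Of 13 mitochondrially encoded messages, 1 rose and 1 fell (0 and 2 after scaling). Of 8 metallothionein and zinc genes, 4 rose and 1 fell (2 and 1 after scaling). Actb, beta-actin, was not called (-0.06 ± 0.052) but was lower after scaling (-0.24).

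How the response compared with that of control cells was tested by subtracting the log2 change in control libraries from that in the libraries labelled Setd1bKO. It was called for 569 of 9159 genes (6.21%), 246 positive (2.69%) and 323 negative (3.53%), or 324 (3.54%) and 282 (3.08%) after scaling. At 2-fold or more, 25 differences were positive and 20 negative. A positive difference means that a gene fell less or rose more in the libraries labelled Setd1bKO.

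Ccl7 fell in both, but less in the libraries labelled Setd1bKO. Control cells had 75.1, 63.8 and 53.6 TPM in the control DexLPS libraries, against 609, 639.9 and 577 TPM in the control LPS libraries, a change of -3.24 ± 0.13, and the difference was 1.71 ± 0.18 (adjusted p = 4.15e-05). With LPS every library labelled Setd1bKO had less Ccl7 than every control library, and with Dex and LPS every one had more. Ccl2, its neighbour in function, also had a positive difference (0.99 ± 0.11 (adjusted p = 3.88e-05)). Ch25h was at 0.685 ± 0.127 TPM with Dex and LPS and 20.6 ± 1.88 TPM with LPS in control (SD, n = 3 each), with a difference of 1.95 ± 0.17 (adjusted p = 5.83e-06). Fcgr1, the high-affinity receptor of IgG, was at 2.10 ± 0.311 TPM with Dex and LPS and 3.78 ± 0.610 TPM with LPS in the libraries labelled Setd1bKO and at 18.9 ± 3.02 TPM with Dex and LPS and 92.9 ± 3.09 TPM with LPS in control, with a difference of 1.63 ± 0.16 (adjusted p = 2.11e-05). Inhba, the activin subunit, was at 6.04 ± 1.94 TPM with Dex and LPS and 19.1 ± 3.08 TPM with LPS in the libraries labelled Setd1bKO and at 19.8 ± 1.12 TPM with Dex and LPS and 172 ± 1.52 TPM with LPS in control, and differed by 1.52 ± 0.24 (adjusted p = 0.000919).

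A further 5 genes among the 10 highest differences had means under 5 TPM in both the DexLPS and the LPS libraries. The endothelial-type lipase Lipg (2.02 ± 0.12), the matrix proteins Tgfbi (1.67 ± 0.10) and Tnc (1.52 ± 0.073), the nucleotide receptor P2ry6 (1.36 ± 0.17) and the kynureninase Kynu (1.24 ± 0.091) had positive differences. In the 9 genes named here from the 10 highest differences the LPS level was lower in the libraries labelled Setd1bKO than in control, and 24 of the 246 positive differences had an LPS mean under 5 TPM there and of 5 TPM or more in control. The differences of Lipg, Tgfbi, Tnc, Kynu, Ch25h and P2ry6 stayed called with a pseudocount of 0.1 (adjusted p = 0.000474, 1.20e-05, 6.28e-05, 0.000166, 0.00243 and 0.00427, in that order).

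Negative differences were largest for Ms4a4a and Ifnb1. Ms4a4a (ENSMUSG00000101389, chromosome 19, 11375523 to 11392790), a membrane protein of macrophages, rose in both: it had 22.7, 25.1 and 22.9 TPM in the DexLPS libraries, against 10.7, 10.1 and 8.68 TPM in the LPS libraries, and 241, 239.6 and 208 TPM in the control DexLPS libraries, against 18.7, 18.5 and 19.9 TPM in the control LPS libraries. Its change was 1.19 ± 0.11 in the libraries labelled Setd1bKO and 3.52 ± 0.11 in control, a difference of -2.33 ± 0.16 (adjusted p = 3.33e-07). Ifnb1 fell further in the libraries labelled Setd1bKO, as control cells had 2.87, 6.92 and 7.75 TPM in the control DexLPS libraries, against 9.95, 8.11 and 8.48 TPM in the control LPS libraries and a change of -0.61 ± 0.23, with a difference of -2.04 ± 0.32 (adjusted p = 0.0011). Csf2 was at 5.33 ± 1.03 TPM with Dex and LPS and 32.7 ± 4.38 TPM with LPS in control, a change of -2.42 ± 0.12 and a difference of -1.44 ± 0.17 (adjusted p = 9.92e-05). Rhob, a small GTPase, had 500.3, 516 and 477 TPM in the DexLPS libraries, against 335, 340.3 and 325 TPM in the LPS libraries, and 448, 469.5 and 471 TPM in the control DexLPS libraries, against 120.4, 109.6 and 118 TPM in the control LPS libraries. It rose in both and its difference was -1.41 ± 0.065 (adjusted p = 7.59e-09). Phlda1 (-1.29 ± 0.19), Fscn1 (-1.21 ± 0.23), Lrmp (-1.20 ± 0.23), Rhof (-1.08 ± 0.23), Ankrd44 (-1.07 ± 0.20) and Rnase4 (-1.04 ± 0.13) complete the 10, and that of Fscn1 was -1.34 and not called (adjusted p = 0.229) with a pseudocount of 0.1. In 7 of these 10 genes the LPS level was higher in the libraries labelled Setd1bKO than in control, and in 1 it was lower.

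**Figure D4:**
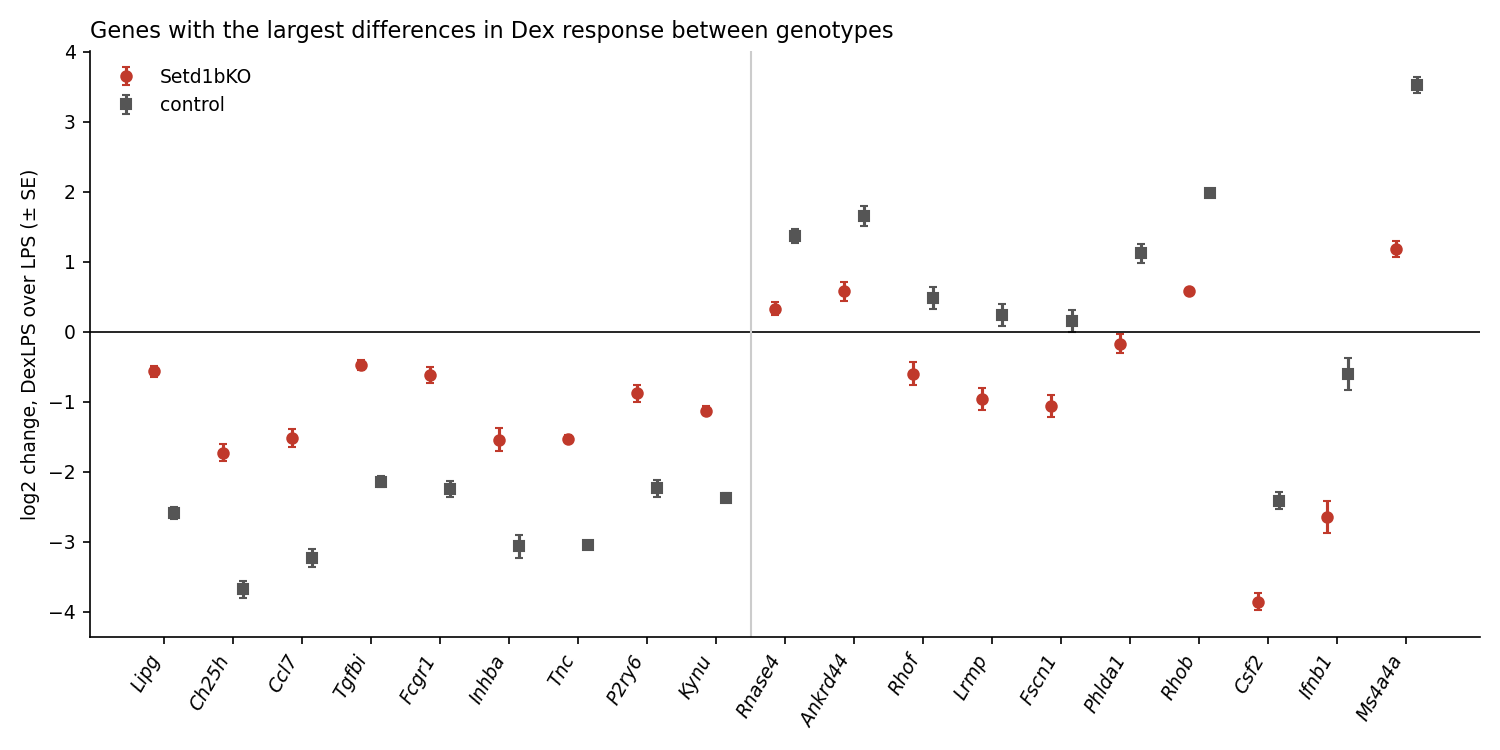
Log2 change with Dex (DexLPS over LPS, with bars of 1 SE) in the libraries labelled Setd1bKO (red circles) and in control libraries (grey squares), for 9 of the 10 highest called differences on the left of the vertical line and the 10 lowest on the right. On the left the control values lie lower, and on the right they lie higher. For Ms4a4a both values are above 0, and for Ifnb1 both are below 0.

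Glucocorticoid targets differed in part. The list of these targets was chosen with earlier results of these data known, so its counts describe the listed genes only. Ms4a4a and Rhob, described above for their negative differences, belong to it. Of 30 glucocorticoid-induced genes, 1 had a positive and 7 a negative difference, against 2.69% and 3.53% of all genes. Dusp1 had the positive one (0.69 ± 0.078 (adjusted p = 7.32e-05)), with 291 ± 7.95 TPM with Dex and LPS and 39.8 ± 0.205 TPM with LPS in control. Klf9 (-0.91 ± 0.18 (adjusted p = 0.006)) and Tns1 (-0.97 ± 0.18 (adjusted p = 0.00321)) rose less in the libraries labelled Setd1bKO. Tsc22d3 (-0.63 ± 0.22 (adjusted p = 0.108)), Fkbp5 (-0.20 ± 0.12 (adjusted p = 0.415)), Per1 (-0.81 ± 0.27 (adjusted p = 0.095)), Sgk1 (0.34 ± 0.13 (adjusted p = 0.157)), Mt1 (0.26 ± 0.093 (adjusted p = 0.131)) and Mt2 (0.28 ± 0.15 (adjusted p = 0.329)) had differences that were not called. The call was made for Tsc22d3 without control LPS replicate 3 (-0.80, adjusted p = 0.0278), for Per1 without LPS replicate 2 (-1.04, adjusted p = 0.0159), for Sgk1 without DexLPS replicate 1 (0.45, adjusted p = 0.0354) and for Mt1 without control LPS replicate 2 (0.35, adjusted p = 0.00893). Nr3c1 had a difference of -0.11 ± 0.35 (adjusted p = 0.911), and Setd1b one of -0.07 ± 0.30 (adjusted p = 0.94).

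Of 25 NRF2 genes, 11 had a negative and 1 a positive difference under both scalings, against 3.53% and 2.69% of all genes. Hmox1 was at 1269 ± 50.8 TPM with Dex and LPS and 469.9 ± 38.3 TPM with LPS in control, a change of 1.43 ± 0.064 and a difference of -0.53 ± 0.090 (adjusted p = 0.00197). Gclc (-0.68 ± 0.095), Gsr (-0.48 ± 0.064), Gsta3 (-0.61 ± 0.11) and Cat (-0.52 ± 0.065) had negative differences too. Hmox1 was nonetheless lower in control than in the libraries labelled Setd1bKO under both treatments. The summed level of the listed NRF2 genes was lower in control too, at 58212 to 58889 TPM with LPS against 67266.5 to 69986 TPM. With Dex and LPS it was 59888 to 61278 TPM in control against 69512 to 73441 TPM. Whether the starting level bears on these differences was not tested. Of 22 genes of the unfolded protein and integrated stress response, 9 had a negative and 0 a positive difference under both scalings, with Dnajb9 (-0.76 ± 0.12), Herpud1 (-0.65 ± 0.11) and Calr (-0.33 ± 0.063) among them. Of 23 genes of glycolysis, 5 had a positive and 0 a negative difference (6 and 0 after scaling): Pfkfb3 rose more (1.07 ± 0.13 (adjusted p = 9.51e-05)) and Hk3 fell less (0.32 ± 0.072) in the libraries labelled Setd1bKO.

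Inflammatory genes had differences of both signs. Of 19 cytokines, 3 were positive and 6 negative, against 2.69% and 3.53% of all genes. Il1b (0.64 ± 0.092 (adjusted p = 0.000505)) and Il1rn (1.01 ± 0.11 (adjusted p = 4.65e-05)) fell less in the libraries labelled Setd1bKO. Tnf fell there and was not called in control, where it was at 7332 ± 592 TPM with Dex and LPS and 7129 ± 461 TPM with LPS, and the difference was -0.70 ± 0.12 (adjusted p = 0.0019). Il6 (0.01 ± 0.11 (adjusted p = 0.967)) and Il12b (0.08 ± 0.13 (adjusted p = 0.81)) had differences that were not called. Of 19 chemokines, 6 were positive and 3 negative, against the same shares of all genes. That of Cxcl1 was -0.82 ± 0.20 (adjusted p = 0.023), and it was not called without DexLPS replicate 3, LPS replicate 3, control DexLPS replicate 2 or 3 or control LPS replicate 2 (-0.81 to -0.77, adjusted p = 0.0527 to 0.0633), or with a pseudocount of 0.1 (adjusted p = 0.0528). That of Cxcl10 was 0.53 ± 0.15 (adjusted p = 0.0461), and was lost without any of 10 of the 12 libraries in turn (adjusted p up to 0.117) and with a pseudocount of 0.1 (adjusted p = 0.0981). Of 60 interferon-stimulated genes, 5 were positive and 1 negative, against 2.69% and 3.53% of all genes. The Schlafen family gene Slfn4 (1.15 ± 0.24 (adjusted p = 0.00908)), named after its values were seen, and Ifit1bl1 (1.05 ± 0.12 (adjusted p = 9.51e-05)) were the furthest, and Ifit1 was not called (-0.05 ± 0.084 (adjusted p = 0.815)). Nos2 (0.58 ± 0.11 (adjusted p = 0.00376)), Cd86 (1.10 ± 0.16 (adjusted p = 0.000462)), Saa3 (0.69 ± 0.12 (adjusted p = 0.00179)) and S100a8 (0.60 ± 0.094 (adjusted p = 0.000991)) had positive differences, as did Csf3r (0.79 ± 0.12). That of Clec7a was negative (-0.43 ± 0.061), and Ptgs2 was not called (0.12 ± 0.18 (adjusted p = 0.783)).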

How the data were processed

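Libraries were stranded TruSeq messenger RNA libraries from 500 ng of RNA, per the labels' protocols. The authors' deposited table holds TPM (a library's transcript abundances scaled to a fixed total) for 9179 genes in 18 libraries, with the authors' log2 fold changes, p-values and adjusted p-values. It also holds a signal column, the authors' mean of normalized counts, which was at least 50.1 for every gene, so genes of lower level are not analysed here. Salmon 0.10.2, DESeq2, R 3.6.0 and the build GRCm38.p6 (mm10) are named in the submitters' processing notes, and the annotation release they used is not stated.

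All 18 libraries were fitted together on log2(TPM + 1), with 1 mean for each of the 6 groups, so that all groups share a single estimate of the spread, using limma 3.58.1 (R 4.3.3, with data.table, version 1.17.8) and eBayes with a trend. Testing was limited to the 9159 genes that reached 1 TPM in 3 or more libraries. Calls were made at a Benjamini-Hochberg adjusted p under 0.05, two-sided. A pseudocount of 1 understates changes of low genes. A count test was not run because TPM keeps no depth. Tables and figures were made with Python 3.11.15, pandas 2.3.3, numpy 2.4.6 and matplotlib 3.10.9. The method was tested on simulated data for 9159 genes, of which 100 were changed by 0.5 and 100 by 1 on the log2 scale. For the main comparison it recovered 78% and 94% of these, with 11 false of 183 calls. For the difference it recovered 54% and 88%, with 7 false of 149. In the real comparison 52.7% of genes were called, so these rates need not hold there.

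Samples were grouped by their genotype and treatment labels. The comparison, its members and the 34 gene lists were chosen with earlier results of these data known. The text may name the 12 highest and 12 lowest changes among genes called in the same direction under both scalings, with a group mean of 5 TPM or more and no overlap. Further names are up to 6 called genes per list, the 2 most expressed members not called, the 10 highest and 10 lowest differences, and a fixed set that includes Setd1b, Nr3c1 and Tnf. Other genes are named for promoter motifs, which were looked at after the values were seen, or where the text says that they were named then. Some genes that this rule names are not reported here. Alternatives were a pseudocount of 0.1, no filter or one of 5 TPM, median-of-ratios scaling, a block for replicate numbers, a fit restricted to the compared libraries, the authors' results (added after the data were seen), and leaving out each library. Coordinates are from GENCODE vM21 on GRCm38, which matched 9176 of 9179 genes by identifier. Replicate libraries correlated at 0.993 or more, and no pair was identical.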

Additional observations from a re-analysis of the deposited data

Results flagged for a closer look

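The results below were picked out because the response to Dex under LPS was not the same in libraries labelled Setd1bKO as in control libraries, by a test of the difference itself. Such a difference was called for 569 genes. Each value is the log2 change in the libraries labelled Setd1bKO minus that in control, with 3 libraries in each of the 4 groups.

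Among 9 genes of the 10 highest differences, the values were 2.02 for Lipg, 1.95 for Ch25h, 1.71 for Ccl7, 1.67 for Tgfbi, 1.63 for Fcgr1, 1.52 for Inhba, 1.52 for Tnc, 1.36 for P2ry6 and 1.24 for Kynu. Other inflammatory and antigen presentation genes had positive values, with 1.10 for Cd86, 1.05 for Ifit1bl1, 1.15 for Slfn4, 1.01 for Il1rn, 0.99 for Ccl2, 0.64 for Il1b, 0.58 for Nos2 and 0.53 for Cxcl10. Genes listed as neutrophil markers or acute-phase genes had 0.79 (Csf3r), 0.69 (Saa3) and 0.60 (S100a8). The glycolysis genes Pfkfb3 and Hk3 had 1.07 and 0.32, and the phosphatase Dusp1 had 0.69.

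Among the genes of the 10 lowest differences, the values were -2.33 for Ms4a4a, -2.04 for Ifnb1, -1.44 for Csf2, -1.41 for Rhob, -1.29 for Phlda1, -1.21 for Fscn1, -1.20 for Lrmp, -1.08 for Rhof, -1.07 for Ankrd44 and -1.04 for Rnase4. The glucocorticoid targets Tns1 and Klf9 had -0.97 and -0.91. The inflammatory genes Cxcl1, Tnf and Clec7a had -0.82, -0.70 and -0.43. Stress genes had negative values, with -0.76 for Dnajb9, -0.68 for Gclc, -0.65 for Herpud1, -0.61 for Gsta3, -0.53 for Hmox1, -0.52 for Cat, -0.48 for Gsr and -0.33 for Calr. Hmox1 itself was higher in the libraries labelled Setd1bKO than in control, both with LPS and with Dex and LPS.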

How the results depend on the processing

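Of the 190 genes named for the change with Dex, 167 kept their side of the threshold under all alternatives. Those of them that were called also kept their direction. Genes not called could still change sign, as Sgk1 did (-0.143 to 0.143). Of the genes called as deposited, 1, Ebi3, turned its sign. It went to -0.0458 after scaling and -0.0425 in the authors' deposited table, and was called in neither. Of 58 differences, 51 kept their side of the threshold under all, and 0 of those called reversed. A difference not called could change sign, as that of Nr3c1 did (-0.310 to 0.157). Among counts that moved by over 1.5 times, genes that rose were 1404 after median-of-ratios scaling and 1229 in the authors' deposited table, and genes that fell were 2178 and 2135, against 3591 and 1234 as deposited. Genes at least 2-fold higher were 167 with a pseudocount of 0.1, and genes at least 2-fold lower were 347 in the authors' deposited table. Leaving out 1 library at a time gave 4188 to 4899 genes called, 3027 to 3835 that rose, 1064 to 1258 that fell, 104 to 127 at least 2-fold higher and 155 to 175 at least 2-fold lower. It gave 410 to 589 differences, 177 to 309 positive and 228 to 353 negative. A replicate block gave 4792 calls and 534 differences. Deviations of same-numbered DexLPS and LPS libraries correlated at 0.183, 0.00033 and 0.0918, against -0.243 to 0.174 for the other pairs. The labels tie the numbers to nothing, so whether same-numbered libraries share more than a number is not known. The difference of Cxcl10 was not called with the block (adjusted p = 0.0665), nor was the change of Cxcl9 (adjusted p = 0.0525), while that of Ifitm3 was (adjusted p = 0.0437). TPM values carry no read depth, so no counting error can be given, and 3 libraries a group limit what could be called. A simulated log2 change of 0.5 was recovered for 78% of genes in this comparison and for 54% in the difference. That simulation changed far fewer genes than were called here, so its rates need not hold for these data.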
